A study of Mus musculus with 10 samples.

Results

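The Trim12 and Trim30 cluster is a run of TRIM genes on mouse chromosome 7 (GRCm39). Its members here were 8 genes named by symbol, Trim34a, Trim5, Trim12a, Trim12c, Trim30b, Trim30c, Trim30a and Trim30d, and all 8 were among the 29883 genes of the deposited count table, so that 0 were absent. They were chosen by their position and by the read counts of these same mice, since the near absence of Trim12a from D2 was part of the choice. Their differences between the strains are therefore given as a description, with no test.

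RNA was sequenced from the nucleus accumbens (NAc), a part of the ventral striatum, of 5 C57BL/6J (B6) and 5 DBA/2J (D2) mice, with 1 poly-A library per mouse. Both groups were inbred, male, ethanol-naive, group-housed and 9 weeks old, and strain was the only factor that differed by design. The strains are the parents of the BXD recombinant inbred panel and were compared because they differ in their behavior toward ethanol. The strain labels hold no other allele or treatment.

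TRIM proteins carry a RING domain that works as a ubiquitin ligase, B-box domains and a coiled coil through which they assemble, and many end in a B30.2 (SPRY) domain that binds the target. TRIM5 of primates is known for recognizing the capsid of incoming retroviruses with that last domain, and mice hold several relatives of it side by side, of which Trim5, Trim12a and Trim12c are the closest. TRIM30a is known as an interferon-inducible brake on Toll-like receptor signaling that leads to loss of the TAK1 binding proteins TAB2 and TAB3, and TRIM12c is known to act with TRAF6 toward interferon and NF-kB signaling.

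The 8 members span 263 kb. In order of position, Trim34a (ENSMUSG00000056144) lies at chr7:103893663-103911446 on the forward strand, and the other 7 lie on the reverse strand. Trim5 (ENSMUSG00000060441) is at chr7:103912592-103937420, Trim12a (ENSMUSG00000066258) at chr7:103945967-103964797 and Trim12c (ENSMUSG00000057143) at chr7:103987961-104002601. The Trim30 genes follow, with Trim30b (ENSMUSG00000052749) at chr7:104004589-104019103, Trim30c (ENSMUSG00000078616) at chr7:104031272-104050044, Trim30a (ENSMUSG00000030921) at chr7:104058232-104114407 and Trim30d (ENSMUSG00000057596) at chr7:104119221-104157107. Trim34b, a near copy of Trim34a that is no member, sits between Trim12a and Trim12c at chr7:103978678-103986686 on the forward strand. The annotated proteins have 485 residues for Trim34a, 497 for Trim5, Trim12c and Trim30d, 496 for Trim30a and 513 for Trim30c, but 297 for Trim12a, which lacks a B30.2 domain, and 203 for Trim30b.

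The coding sequences fall into families of near copies, which matters for any count of reads on them. Trim34a and Trim34b differ at 17 of 1455 coding bases (98.8% identity). Trim12a differs from Trim12c at 32 of 891 aligned bases (96.4%) and from Trim5 at 26 of 891 (97.1%), while Trim5 and Trim12c differ at 51 of 1491 (96.6%). Among the Trim30 genes, Trim30a and Trim30d are closest, at 90.2%. The first 60 coding bases of the 2 pairs whose reads are set side by side later, read from GRCm39 with the bases at which a pair differs in capitals, show how alike they are:
Trim12a: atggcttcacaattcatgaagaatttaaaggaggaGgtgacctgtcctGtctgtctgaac
Trim12c: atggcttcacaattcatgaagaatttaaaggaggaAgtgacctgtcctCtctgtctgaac
Trim34a: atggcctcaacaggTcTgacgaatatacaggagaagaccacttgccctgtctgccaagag
Trim34b: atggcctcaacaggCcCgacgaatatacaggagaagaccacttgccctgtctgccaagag
In each pair 2 of these 60 bases differ. Of all stretches of 150 bases, the read length, in the annotated transcripts of a gene, 7.58% of those of Trim34a, 9.56% of Trim34b, 3.38% of Trim5, 2.98% of Trim12a and 6.87% of Trim12c also occur at another place, in transcripts of genes that do not overlap the gene itself or again in the cluster. At 75 bases these shares rise to 30.6%, 35.7%, 21.6%, 12.3% and 20.7%. The heat map of coding identity shows the same grouping.

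**Figure D1:**
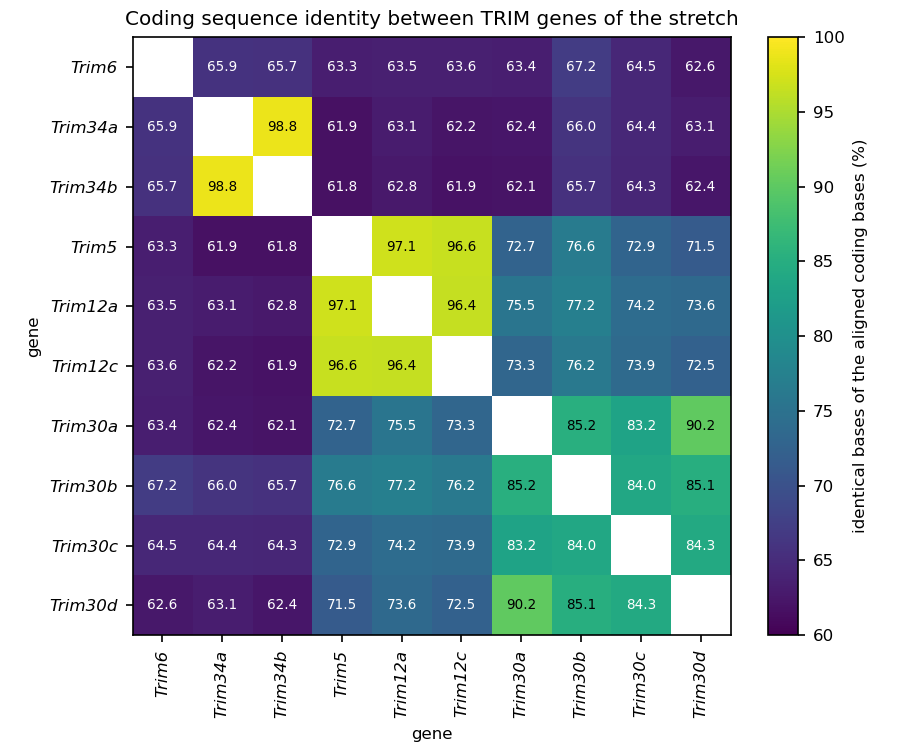
Heat map of coding sequence identity (percent of aligned coding bases, global pairwise alignment of the annotated coding sequences of GRCm39) between the 8 cluster genes, Trim34b and Trim6, which lies beside them. Trim34a with Trim34b (98.8%) and Trim5, Trim12a and Trim12c with each other (96.4% to 97.1%) form the blocks of highest identity, followed by the Trim30 genes, of which Trim30a and Trim30d share 90.2%.

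Most members carry a shared motif shortly before or after their start. The interferon-stimulated response element is the DNA motif bound by ISGF3 and by interferon regulatory factors, and its core, a GAAA followed after any 2 bases by another GAAA, was searched on both strands within 250 bases on each side of the start of the canonical transcript in the annotation. It was present in 6 of the 8 members, and absent as these letters from the windows of the other 2, Trim30b and Trim30c. The window of Trim34b, the near copy of Trim34a, held none either. Over all protein-coding genes, 1202 of 21770 such windows (5.521%) held it. The matches, on the strand of each gene and with the motif in capitals (here read as its reverse complement), are shown because the members of a family share not only the core but its flanks:
Trim34a: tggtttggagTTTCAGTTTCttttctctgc
Trim5: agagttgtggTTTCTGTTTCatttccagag
Trim12a: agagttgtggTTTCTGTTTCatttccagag
Trim12c: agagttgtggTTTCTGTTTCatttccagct
Trim30a: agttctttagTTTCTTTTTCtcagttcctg
Trim30d: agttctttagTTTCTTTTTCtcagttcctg
These windows of 30 bases lie at chr7:103893664-103893693 for Trim34a, chr7:103937343-103937372 for Trim5, chr7:103964673-103964702 for Trim12a, chr7:104002566-104002595 for Trim12c, chr7:104114417-104114446 for Trim30a and chr7:104157078-104157107 for Trim30d. That start equals the 5′ end of the gene or lies 1 base inside it for all members but Trim5, whose canonical transcript starts at chr7:103937301, inside the gene as annotated. Counted from it, the motif ends 20 bases before the start of Trim30a and 52 before that of Trim5, and begins 11 bases into the transcripts of Trim34a and Trim30d, 17 into that of Trim12c and 106 into that of Trim12a. Trim5 and Trim12a share all 30 bases, and so do Trim30a and Trim30d. A match of letters is no measure of binding, and the sequence is that of B6.

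Depth lay between 96977262 and 111468080 counted reads per B6 library and between 104443243 and 116776714 per D2 library. The labelled tissue held its markers: all 10 genes of striatal projection neurons were present. They summed to 4761 to 6074 CPM (reads per 1000000 counted reads, TMM-scaled) in B6 and 3945 to 4786 in D2. Of them, 7 (70%) were lower in D2 past the threshold, an adjusted p of 0.05. Over all genes 18.3% passed it, and 23.8% of those whose mean reached 50 counts, as all 10 did. Markers of cortical projection neurons summed to 929.3 and 941.1 CPM in B6 replicates 3 and 5 against 74.16 to 159.1 in the other B6 mice and 213.2 to 579 in D2. These 2 libraries stand apart, also by markers of choroid plexus and ependyma (27 and 28.16 CPM against 45.45 to 48.33 in the other B6 mice). Without these libraries the direction of every member's difference was the same. Microglial markers, of which 1 of 12 was higher and 4 lower in D2 past the threshold (41.7% in all), summed to 414.7 to 481.9 CPM in B6 and 338.1 to 408.5 in D2, without overlap. Without the complement genes C1qa, C1qb and C1qc, a set left out after its values were seen, the other 9 summed to 314.2 to 349.9 and 285.7 to 341.6 CPM, with overlap. Markers of blood cells and perivascular macrophages summed to 4.476 to 5.425 and 4.535 to 5.649 CPM. Oligodendrocyte markers, 5 of 8 of them (62.5%) lower in D2 past the threshold, summed to 4403 to 6315 and 3333 to 4846 CPM. Astrocyte markers (3 of 7 past it, 1 higher and 2 lower) summed to 3364 to 3817 and 3595 to 3833 CPM. Endothelial markers (0 of 8) summed to 215.2 to 263.4 and 176.6 to 234.2 CPM. Those of choroid plexus and ependyma (1 of 7, lower) summed to 27 to 48.33 and 41.07 to 50.56 CPM. Every marker had more than 3 reads in some mouse. The part of these cells in the results was not tested, and in bulk tissue fewer cells of a type and less RNA per cell cannot be told apart.

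The cluster genes had few reads in the NAc of both strains, and most of them fewer in D2. By mean CPM, 6 members were lower and 2 were higher in D2. The 8 genes together had 1073 to 1365 reads per B6 mouse and 593 to 772 per D2 mouse, which is 11.5 CPM ± 0.429 (SD, n = 5) against 6.03 CPM ± 0.605 (SD, n = 5), and the strains did not overlap. In the fit across all genes, 5 of the 8 passed an adjusted p of 0.05, 4 lower and 1 higher in D2. Those lower were Trim12a, Trim5, Trim34a and Trim30d, and the 1 higher was Trim30c, while Trim12c did not pass. The median log2 fold change of the 8 was -1.04. Of all genes 18.3% passed (9.83% lower and 8.5% higher), around a median of 0.00359. The values of the mice did not overlap between the strains for 5 members, as for 16% of all genes. Since this contrast was used to choose the members, nothing is read from these counts.

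**Figure D2:**
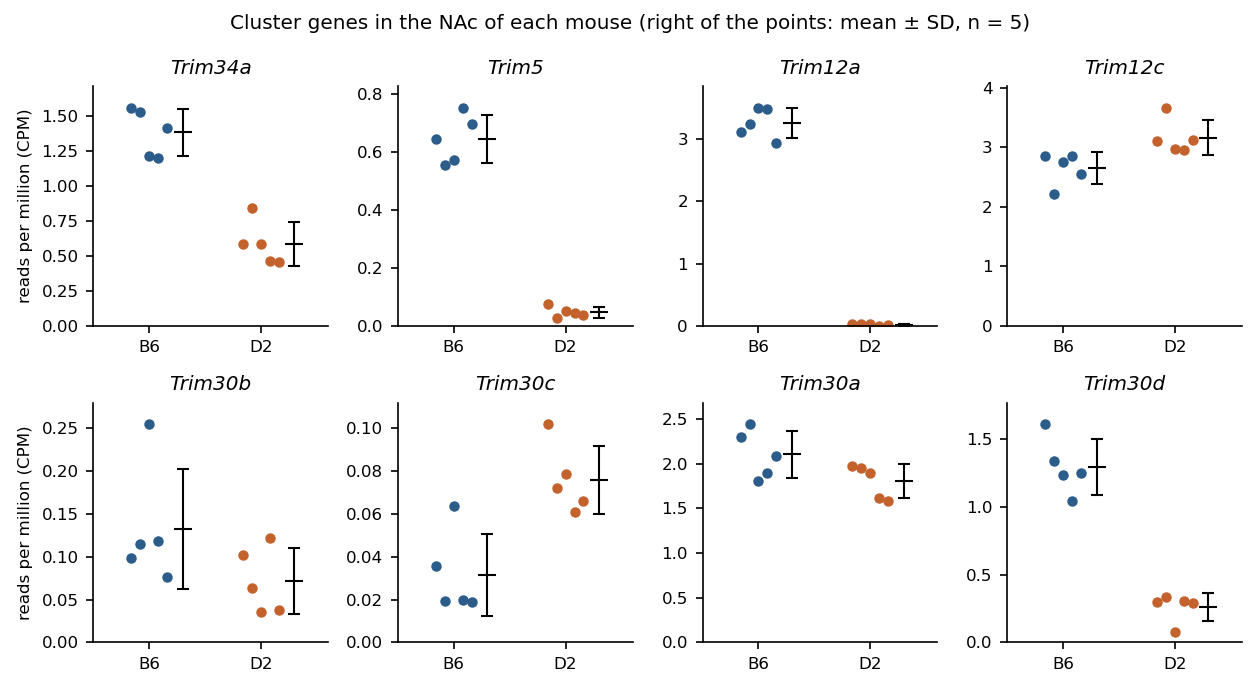
CPM (TMM-scaled, each panel on its own axis from 0) of the 8 cluster genes in each of the 5 B6 (blue) and 5 D2 (orange) mice, with the mean and SD beside the points. Trim12a and Trim5 are near 0 in all D2 mice, Trim34a and Trim30d are lower in D2 without overlap, Trim12c is slightly higher in D2 without overlap, and Trim30a, Trim30b and Trim30c overlap.

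Trim12a showed the widest gap. It had 348, 338, 330, 352 and 309 reads in B6 replicates 1 to 5, and 4, 3, 3, 0 and 1 in D2 replicates 1 to 5. No B6 mouse had fewer than 309 reads and no D2 mouse more than 4, at 3.25 CPM ± 0.241 (SD, n = 5) and 0.0194 CPM ± 0.0141 (SD, n = 5). On the log2 scale D2 differed from B6 by -7.30 (SE 0.259). Pooled over the mice of a strain, 1677 reads in B6 stood against 11 in D2, a ratio of 163 per counted read with a 95% interval of 90.7 to 327 (exact binomial) that covers counting error only. With 0 reads in D2 replicate 4, up to 3 reads are allowed in that library.

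Trim5, the mouse gene that carries the name of the primate restriction factor, was also low in D2. Its reads numbered 72, 58, 54, 76 and 73 in the B6 mice and 9, 3, 6, 5 and 4 in the D2 mice. No D2 mouse came near the lowest B6 mouse. The levels were 0.644 CPM ± 0.0826 (SD, n = 5) and 0.0475 CPM ± 0.0186 (SD, n = 5), a log2 fold change of -3.72 (SE 0.234). The pooled reads, 333 against 27, gave a ratio of 13.2 with a 95% interval of 8.89 to 20.3 for counting error.

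Trim12c, the relative that acts with TRAF6, went the other way. It had 319, 232, 259, 289 and 268 reads in B6 and 366, 405, 340, 339 and 330 in D2. The lowest D2 mouse lay above the highest B6 mouse, by a small margin. The levels were 2.65 CPM ± 0.268 (SD, n = 5) in B6 and 3.16 CPM ± 0.29 (SD, n = 5) in D2, a log2 fold change of 0.26 (SE 0.0938).

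Set side by side, Trim12a and Trim12c held similar numbers of reads in B6, whereas nearly all reads of the pair lay on Trim12c in D2. Trim12c took 40.7% to 47.8% of the pair's reads in the B6 mice (44.8% ± 2.71, SD, n = 5) and 98.9% to 100% in the D2 mice (99.4% ± 0.44, SD, n = 5). The summed level of the pair was 5.9 CPM ± 0.414 (SD, n = 5) in B6 and 3.18 CPM ± 0.296 (SD, n = 5) in D2. This sum did not overlap between the strains, at 5.46 to 6.35 CPM in B6 and 2.95 to 3.69 in D2. The sum of Trim12c with its other near copy, Trim5, overlapped between the strains, at 2.78 to 3.61 CPM in B6 and 2.99 to 3.69 in D2. Its means were 3.29 ± 0.321 and 3.21 ± 0.28 (SD, n = 5 each). The pairs of Trim12c and the Trim34 pair below were chosen after their values were seen, and carry no test.

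Trim34a, a relative of the TRIM5 genes at the edge of the cluster, was lower in D2 by a smaller step. Its reads were 174, 159, 114, 121 and 148 in B6 and 69, 93, 67, 53 and 48 in D2. The strains did not overlap, and the highest D2 mouse was replicate 2. The levels were 1.38 CPM ± 0.169 (SD, n = 5) and 0.586 CPM ± 0.157 (SD, n = 5), a log2 fold change of -1.23 (SE 0.171).

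Its near copy Trim34b, which the choice of members did not use, showed the reverse. Trim34b had 2, 8, 3, 4 and 4 reads in B6 and 86, 75, 78, 80 and 57 in D2, so that the gene was close to its floor in every B6 mouse. Its log2 fold change was 3.99 (SE 0.261, edgeR quasi-likelihood test, Benjamini-Hochberg adjusted p = 2.32e-07), and pooled reads of 376 against 21 gave a ratio of 16.8 (95% interval 10.8 to 27.4, counting error only). In the D2 mice Trim34b took 44.6% to 60.2% of the reads of the pair (53.7% ± 5.64, SD, n = 5), against 1.14% to 4.79% in B6 (2.86% ± 1.32, SD, n = 5). The sum of the pair overlapped between the strains, at 1.24 to 1.6 CPM in B6 and 0.991 to 1.52 in D2 (means 1.42 ± 0.174 and 1.25 ± 0.195, SD, n = 5 each). The strains were thus apart in the share of Trim34b and overlapped in the sum of the pair. How reads that fit both genes were assigned is not given in the sources used here, and D2 reads were aligned to the B6 genome. The part of either in the values of the near copies was not tested.

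**Figure D3:**
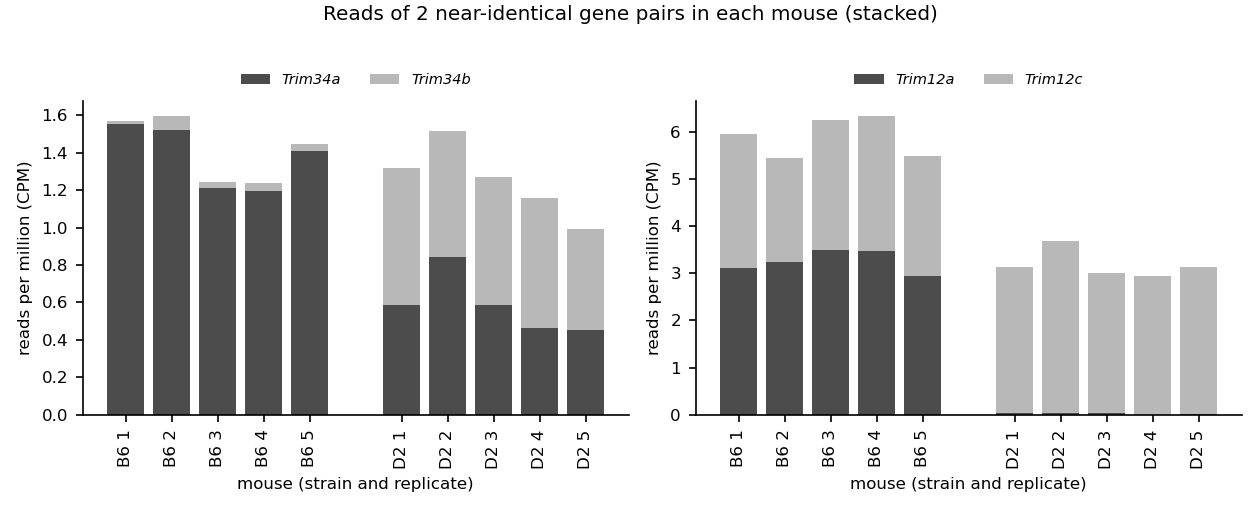
Stacked bars of CPM (TMM-scaled, axis from 0) in each of the 10 mice for Trim34a with Trim34b (left) and Trim12a with Trim12c (right). The bars of the Trim34 pair reach 1.24 to 1.6 in B6 and 0.991 to 1.52 in D2 while the share of Trim34b rises from 2.86% to 53.7% of its reads, and the bars of the Trim12 pair fall from a mean of 5.9 to 3.18 as the Trim12a part disappears.

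Of the Trim30 genes, Trim30d was the one with a clear gap. It had 180, 140, 116, 105 and 131 reads in B6 and 35, 37, 9, 35 and 31 in D2. The strains did not overlap, and D2 replicate 3 lay far under the other D2 mice. The levels were 1.29 CPM ± 0.207 (SD, n = 5) and 0.262 CPM ± 0.103 (SD, n = 5), a log2 fold change of -2.30 (SE 0.269). A processed pseudogene inside it on the same strand, Gm16464, was counted separately, with a log2 fold change of -0.17 (SE 0.265, edgeR adjusted p = 0.738).

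Trim30a, the brake on Toll-like receptor signaling and the member with the most reads of its family, overlapped between the strains. It had 257, 255, 170, 192 and 219 reads in B6 and 232, 216, 217, 186 and 168 in D2. The levels were 2.11 CPM ± 0.266 (SD, n = 5) and 1.81 CPM ± 0.188 (SD, n = 5), a log2 fold change of -0.22 (SE 0.11). The difference between the means was of the size of the spread between mice.

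Trim30b and Trim30c were near the limit of detection. Trim30b had 11, 12, 24, 12 and 8 reads in B6 and 12, 7, 4, 14 and 4 in D2, with overlap and a log2 fold change of -0.85 (SE 0.428). Trim30c had 4, 2, 6, 2 and 2 reads in B6 and 12, 8, 9, 7 and 7 in D2. By reads the lowest D2 mouse of Trim30c exceeded the highest B6 mouse, but on the CPM scale B6 replicate 3 (0.0637 CPM) exceeded the lowest D2 mouse (0.0609 CPM), so the strains overlapped. Its log2 fold change was 1.26 (SE 0.4).

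Along the chromosome, differences of opposite sign lay side by side, as the map of the cluster shows. Trim34b, higher in D2, stands between Trim12a, the member with the lowest ratio, and Trim12c. Trim30a, which overlapped, stands beside Trim30d, which did not.

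**Figure D4:**
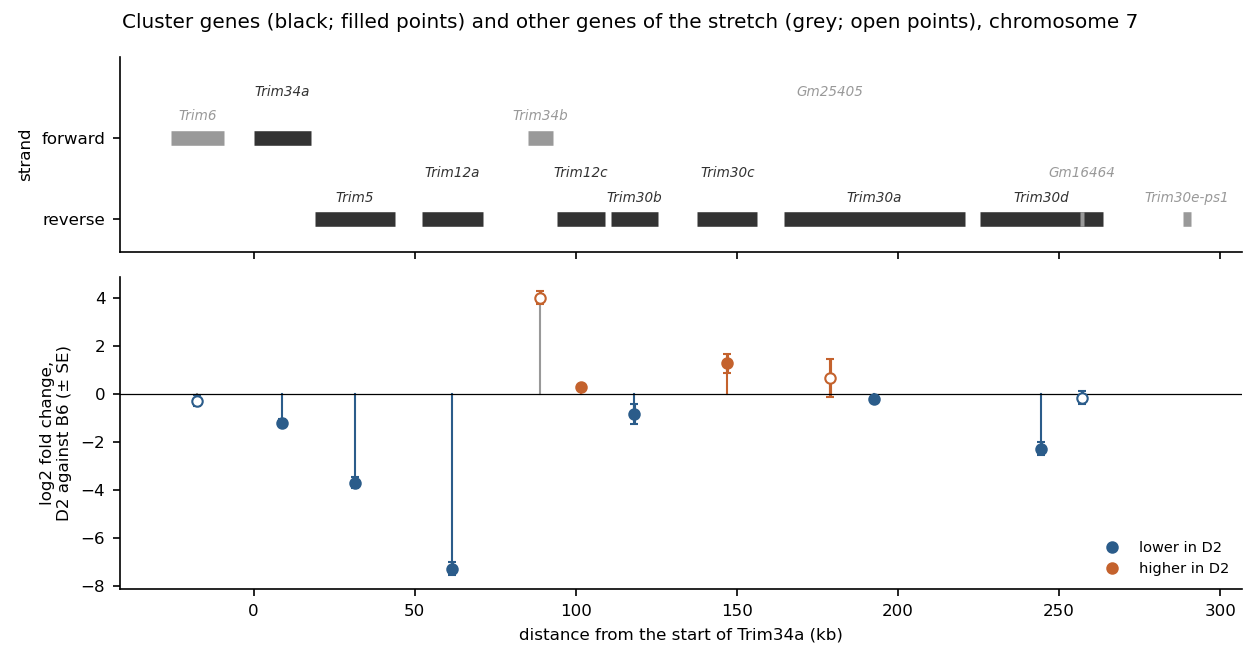
Upper panel: the cluster genes (black) and the other genes of the table in the stretch (grey) by strand and distance from the start of Trim34a (kb). Lower panel: strain difference, D2 minus B6 on the log2 scale (point), with its SE (bar) at the middle of each gene, filled for cluster genes, open for the others, orange for higher and blue for lower in D2. Trim12a (-7.30), Trim5 (-3.72) and Trim34b (3.99) lie farthest from 0, and no point is drawn for Trim30e-ps1, which had 0 reads in all D2 mice.

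Compared per length of the annotated exons, the order of the members also differed between the strains. In B6, Trim12c had 0.664 CPM per kb ± 0.0672 (SD, n = 5) and Trim34a 0.523 ± 0.064, and the mice of these neighbours in the order overlapped. Trim30d (0.34 ± 0.0544), Trim12a (0.266 ± 0.0197), Trim30a (0.215 ± 0.0271) and Trim5 (0.171 ± 0.0219) followed, each overlapping the next. Trim30c (0.0183 ± 0.0113) and Trim30b (0.0176 ± 0.00933) were far lower and overlapped each other. With the longest transcript as the length, Trim12a in B6 had 0.46 CPM per kb and stood before Trim30a (0.363) and Trim30d.

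In D2, Trim12c stood alone at 0.793 CPM per kb ± 0.0727 (SD, n = 5). Trim34a (0.222 ± 0.0595) and Trim30a (0.184 ± 0.0191) overlapped each other, as did Trim30d (0.0687 ± 0.0272) and Trim30c (0.0443 ± 0.0093). Trim5 (0.0126 ± 0.00494) and Trim30b (0.00955 ± 0.00514) overlapped, and Trim12a came last at 0.00158 ± 0.00115. By this length, Trim12c was first in both strains, and Trim12a fell from the fourth place to the last. With the longest transcript as the length, Trim12c stayed first and Trim12a last in D2. Trim30a (0.311) then stood before Trim34a (0.226) and Trim30b (0.0167) before Trim5 (0.013), with overlap in each case.

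The genes whose pattern over the 10 mice was most like that of a member were sought among 16935 genes whose mean reached 50 counts, by the root mean square difference of centred log2 CPM. For Trim12a these were 1500004A13Rik (0.226), A830036E02Rik (0.328) and Gm10599 (0.428), which lie on chromosomes 3, 11 and 4 and were likewise far lower in D2 (71.4 against 0.69, 68.6 against 0.879 and 1.65 against 0.00691 CPM). Irgm2, an interferon-inducible GTPase, was among the nearest to Trim34a (0.197), beside Plekhh2 (0.195) and Rpsa (0.198). Trim30a was nearest to Entpd1 (0.0764), the ectonucleotidase CD39, which is abundant on microglia, and to Gimap1 (0.0776) and Snx29 (0.087). Trim12c was nearest to Trat1 (0.0673), Mir9-2hg (0.0728) and 9330159F19Rik (0.0795), and Trim30d to Vmn2r57 (0.367), 1700063D05Rik (0.419) and Dcdc2b (0.429). Trim5, Trim30b and Trim30c had means under 50 counts and were left out. The likeness is a description over 10 mice of 2 strains and holds their strain difference.

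The genes around the cluster were not part of the choice. Within 500 kb of its ends the table held 12 other genes, of which 4 (33.3%) passed an adjusted p of 0.05, 2 in each direction, beside 18.3% of all genes, and their median log2 fold change was -0.04. Apart from Trim34b, Trim30e-ps1, a Trim30 pseudogene just beyond Trim30d at chr7:104182166-104184568, had 11, 10, 10, 9 and 3 reads in B6 and 0 in all 5 D2 mice. The authors had dropped genes with a median of 0, and this gene stayed in the table only through its B6 reads. Its call among the 4 therefore carries no weight, and no p is given for it. Its 43 pooled B6 reads stood 15.3-fold above a floor of 3 reads over the D2 group, per counted read. This describes the pooled reads and does not cover the spread between mice. Gm5900, a transcribed processed pseudogene at chr7:104599122-104599496, had 43, 55, 57, 52 and 55 reads in B6 and 246, 204, 215, 218 and 250 in D2, a log2 fold change of 1.98 (SE 0.131, edgeR adjusted p = 2.52e-07).

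On the other side, Hbb-bt, a beta-globin gene of red blood cells at chr7:103461727-103465047, had 522, 485, 603, 520 and 711 reads in B6 and 343, 232, 253, 182 and 281 in D2, a log2 fold change of -1.27 (SE 0.163, edgeR adjusted p = 0.000107). The neighbouring Hbb-bs, with a log2 fold change of -0.36 (SE 0.149, edgeR adjusted p = 0.13), did not pass. For these globin genes too, D2 reads were aligned to the B6 genome, and the part of this in their values was not tested. Trim6, the TRIM gene next to Trim34a, did not pass either, at 0.262 CPM ± 0.0652 in B6 and 0.212 CPM ± 0.0406 in D2 (SD, n = 5 each), a log2 fold change of -0.30 (SE 0.221, edgeR adjusted p = 0.422).

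Of the 55 TRIM genes of the table outside the cluster, Trim34b, Trim30e-ps1 and Trim6 included, 13 (23.6%) passed the threshold, 6 higher and 7 lower in D2, around a median log2 fold change of 0.01. Over all genes 18.3% passed, and 23.8% of the 17024 genes whose mean reached 50 counts, as it did for 37 of these 55. Named by rule from those with at least 50 counts, Trim71, an RNA-binding regulator of stem cells, was lower in D2 by 1.28 on the log2 scale (66 to 160 against 25 to 72 reads, edgeR adjusted p = 0.0114). It was lost without the 2 B6 libraries rich in cortical markers, which had its most reads, at a log2 fold change of -0.78. Trim59 fell by 0.70 (SE 0.0876, edgeR adjusted p = 8.07e-05), Trim17 by 0.63 (SE 0.107, edgeR adjusted p = 0.000988), Trim65, which acts on the sensor MDA5, by 0.32 (SE 0.0622, edgeR adjusted p = 0.0025) and Trim68 by 0.23 (SE 0.0611, edgeR adjusted p = 0.0202). Trim68 passed in 17 of 19 fits, and not under total counts or the replicate block.

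Trim25, the ligase that acts with the RNA sensor RIG-I, rose in D2 from 10.3 CPM ± 0.433 to 13.5 CPM ± 1.04 (SD, n = 5 each), a log2 fold change of 0.38 (SE 0.0597, edgeR adjusted p = 0.000533). Trim28, the corepressor KAP1, which silences endogenous retroviruses, rose by 0.14 (SE 0.0324, edgeR adjusted p = 0.00954). Trim21, the cytosolic antibody receptor, with a log2 fold change of 0.28 (edgeR adjusted p = 0.0402), and Trim47, with 0.23 (edgeR adjusted p = 0.0291), passed here but in only 10 and 9 of all 19 fits. Of the other TRIM genes with reads in both strains, Trim34b alone lay as far from 0 as Trim5. The 2 that had 0 reads in a strain, Trim30e-ps1 and Trim43b, had few reads in the other. They stayed in the table only through that other strain, so their calls, counted among those that passed, carry no weight.

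**Figure D5:**
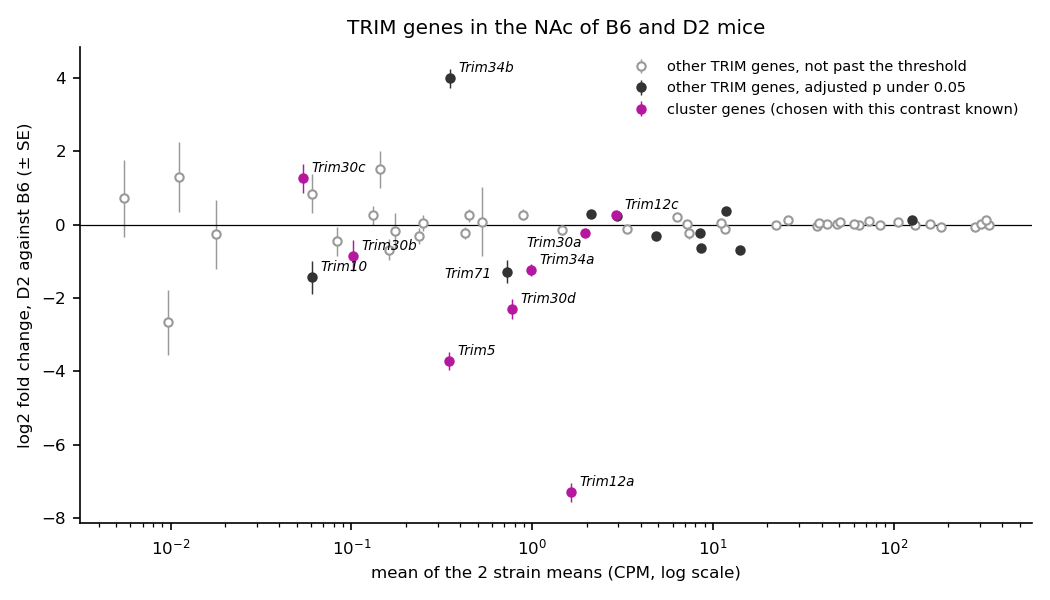
Strain difference, D2 minus B6 on the log2 scale (point), with its SE (bar) for the cluster genes (magenta) and the other TRIM genes (black when past an adjusted p of 0.05, open grey otherwise) over the mean of the strain means in CPM (log axis). The TRIM genes with high CPM lie close to 0, Trim12a (-7.30), Trim5 (-3.72), Trim30d (-2.30) and Trim34b (3.99) lie far from it at low CPM, and Trim30e-ps1 and Trim43b, which had 0 reads in a strain, are not drawn.

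The proteins on which TRIM5, TRIM12 and TRIM30 act, and the interferon route that induces them, were followed through 4 lists with 90 genes in all. Of these 25 (27.8%) passed the threshold, 9 higher and 16 lower in D2, with a median log2 fold change of -0.06. Over all genes 18.3% passed, and 23.8% of those whose mean reached 50 counts, as it did for 81 of these 90. Of the 25, 13 passed in all 19 fits and 12 failed in at least 1. The lists came from general knowledge, with earlier results of these data known.

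In the TAK1 and NF-kB list, 8 of 21 genes passed, 3 higher and 5 lower in D2 (median -0.01), which is 38.1% beside 18.3% of all genes and 23.8% of those whose mean reached 50 counts, as all 21 did. Map3k7, which encodes TAK1 itself, fell by 0.16 (SE 0.0264, edgeR adjusted p = 0.000788). Tab2 and Tab3, whose products TRIM30a is known to target, had log2 fold changes of 0.11 (edgeR adjusted p = 0.0192) and 0.14 (edgeR adjusted p = 0.0417), and passed in 14 and 8 of 19 fits. Traf3, an adaptor of interferon induction, rose by 0.30 (SE 0.0684, edgeR adjusted p = 0.00798). Myd88, the adaptor of the Toll-like receptors, fell by 0.41 (SE 0.0771, edgeR adjusted p = 0.00223), and the deubiquitinase gene Cyld fell by 0.33 (SE 0.0478, edgeR adjusted p = 0.000305). Nfkbia, the inhibitor of NF-kB, had a log2 fold change of -0.21 (edgeR adjusted p = 0.0405) and passed in 12 fits.

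In the list of DNA sensing and the inflammasome, 7 of 14 genes passed, 3 higher and 4 lower in D2 (median -0.13), which is 50% beside the same 18.3% and 23.8%, where 13 of the 14 reached that mean. Aim2, a sensor of cytosolic DNA, fell from 7.92 CPM ± 0.199 to 3.32 CPM ± 0.368 (SD, n = 5 each), by 1.25 on the log2 scale (SE 0.0779, edgeR adjusted p = 1.53e-07). Pycard, the inflammasome adaptor ASC, fell by 0.43 (SE 0.106, edgeR adjusted p = 0.0124), and Irf3, a transcription factor of interferon induction, fell by 0.42 (SE 0.0505, edgeR adjusted p = 6.07e-05). Tbk1, the kinase of IRF3, rose by 0.43 (SE 0.035, edgeR adjusted p = 1.6e-06). Casp1 rose by 0.42 (SE 0.108, edgeR adjusted p = 0.0167) and was lost only with the replicate number as a block, while Nlrp3, with a log2 fold change of 0.44 (edgeR adjusted p = 0.0487), passed in 9 of 19 fits.

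In the list of interferon receptors and their signaling, 3 of 15 genes passed, 1 higher and 2 lower in D2 (median -0.06). This share of 20% stands beside the same 18.3% and 23.8%, where 14 of the 15 reached that mean. Ifnar1, a chain of the type I interferon receptor, rose from 50 CPM ± 0.874 to 58.6 CPM ± 1.76 (SD, n = 5 each), by 0.23 on the log2 scale (SE 0.0309, edgeR adjusted p = 0.000152). Usp18, a brake on that receptor, had a log2 fold change of -0.58 (edgeR adjusted p = 0.0303) and Ifngr1, a chain of the type II receptor, of -0.16 (edgeR adjusted p = 0.022), and each passed in 13 of 19 fits.

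Of 40 interferon-induced genes, 7 (17.5%) passed, 2 higher and 5 lower in D2 (median -0.09), a share close to the 18.3% of all genes. Slfn2, a Schlafen gene known for keeping T cells quiescent, fell by 2.37 (SE 0.2, edgeR adjusted p = 2.42e-06). Ifih1, the sensor MDA5, fell by 0.73 (SE 0.121, edgeR adjusted p = 0.000871). Oas1a, a sensor of double-stranded RNA, had a log2 fold change of -0.78 (edgeR adjusted p = 0.0412) and passed in 9 of 19 fits. In the other direction, the guanylate-binding protein gene Gbp2 rose by 0.55 (SE 0.119, edgeR adjusted p = 0.00549) and Xaf1 by 0.52 (SE 0.113, edgeR adjusted p = 0.00579).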

How the data were processed

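The NAc of 5 B6 and 5 D2 mice was sequenced with paired reads of 150 bp. Per the study's methods and the submitters' processing notes, reads were trimmed with fastp, aligned with STAR 2.7.10b to the Ensembl GRCm39 genome of B6, sorted with SAMtools 1.6 and counted per gene with featureCounts. The study's methods name a stranded kit, while the labels name another provider for the libraries. Whether counting used the strand, and how reads matching several genes were treated, is not given in the sources used here. The deposited values are raw counts of reads, 1 row per gene, after genes with a median of 0 had been dropped by the authors. The lowest median count here was 0.5, and 3 summary columns were not used.

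Genes were matched by Ensembl identifier to GENCODE vM39 (29519 of 29883 found). Counts were fitted with edgeR 4.0.16 under R 4.3.3, with TMM scaling, the quasi-likelihood test of strain and p-values adjusted over the whole table (Benjamini-Hochberg). The SE was derived from the log2 fold change and the F statistic. Each mouse is 1 replicate. No libraries were near duplicates. The closest, B6 replicates 3 and 5, had a chi-square of 4.89 per gene over 15388 genes, against 17.5 to 119 for the other pairs within a strain. These are the 2 libraries rich in cortical markers, and they were far more alike than any other pair. The tests were tested on simulated data.

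The members and lists were chosen with earlier results of these data known. Text names all members, all called neighbours (others only in comparison with these), the 5 largest changes each way among other TRIM genes whose mean reached 50 counts, the 3 largest each way in each list, and 3 genes most like each member. Map3k7, Hbb-bs, Gm16464, Trim6 and Trim43b were added after their values were seen. Alternatives were DESeq2 1.42.0, other normalizations, filterByExpr, at least 10 counts in every library, the replicate number as a block, each mouse left out, and the 2 libraries rich in cortical markers left out. Sequences come from the GRCm39 genome. Pairwise alignments used Biopython 1.88, and tables and plots Python 3.11.15, pandas 2.3.3, numpy 2.4.6, scipy 1.17.1 and matplotlib 3.10.9.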

Additional observations from a re-analysis of the deposited data

Results flagged for a closer look

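Dixon's test over the 5 mice of a strain, with a critical value of 0.71, was applied to 24 groups of the members and of the called neighbours, and chance gives about 1 in 20. In D2, Trim12c was highest in replicate 2 (405 reads, 3.66 CPM against 3.12 in the next mouse, a ratio of gap to range of 0.768). In B6, Trim30b was highest in replicate 3 (24 reads, 0.255 CPM against 0.119, ratio 0.761). In D2, Trim30d was lowest in replicate 3 (9 reads, 0.0787 CPM against 0.293, ratio 0.836). Trim34b was lowest in D2 replicate 5 (57 reads, 0.538 CPM against 0.678, ratio 0.728), and Trim30e-ps1 was lowest in B6 replicate 5 (3 reads, 0.0286 CPM against 0.0891, ratio 0.78).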

How the results depend on the processing

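The log2 fold changes of the members were computed in 138 alternatives over 18 settings, of which 0 reversed and all 138 moved by less than the spread between mice. Leaving out 1 of 5 mice, or rescaling the libraries, can hardly move a fold change that far, so nothing is read from this count. Trim12a stayed between -7.59 and -6.99 with each mouse left out, Trim5 between -3.96 and -3.58, and Trim30d between -2.41 and -2.08. Calls among the members were less even: Trim30c, with its few reads, was not tested after filterByExpr, and passed neither under the replicate block, nor in DESeq2, which called Trim12c in its place, nor in 9 of the 10 fits that left out 1 mouse, the exception being the fit without B6 replicate 3. A minimum of 10 counts in every library removes members by construction and left 3 of them, with Trim34a as the only call. Of the neighbours, 4 passed, and 2 with at least 10 counts in every library, where Trim34b and Trim30e-ps1 were not tested. Of the other TRIM genes, 13 passed, and 8 with the replicate block. The correlations of the 5 pairs of mice with equal replicate number were 0.371, -0.415, 0.369, 0.034 and -0.293. Mice of unequal number were not compared, so these values cannot settle whether the numbers pair the mice. The block lowered the calls over all genes from 5478 to 4731. With each mouse left out, calls ranged from 4636 to 5676 over all genes, stayed at 4 for the neighbours, and ranged from 10 to 13 for the other TRIM genes and from 17 to 24 for the pathway genes. Without the 2 libraries rich in cortical markers, a choice made after seeing the data, they were 5745, 4, 14 and 20. DESeq2 gave 6175 calls over all genes. Depth limits Trim30b and Trim30c, which had at most 24 and 12 reads in any mouse. All differences were scaled on the whole library, and total counts moved the median of all genes by 0.0313.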
